A study of Saccharomyces cerevisiae with 16 samples.

Results

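The passage from the end of the reductive charging phase (RC) into the oxidative phase (OX) of the Yeast Metabolic Cycle (YMC) was followed through acetylation of histone H3 at lysine 18 (H3K18ac). It was covered by 5 of the 16 H3K18ac ChIP-seq libraries of the series, chosen by their sampling times. The RC group held the libraries of 48.32 and 48.63 h (n = 2) and the OX group those of 48.75, 48.83 and 48.98 h (n = 3). All 5 came from Saccharomyces cerevisiae strain ZKY329, a MATa strain of the CEN.PK background, cycling in continuous culture with no added treatment. Its SPT7-FLAG::natMX allele, which puts a FLAG tag on the SAGA subunit Spt7, was present in both groups and at every other time point. The immunoprecipitation used a polyclonal H3K18ac antibody from Millipore, and each time point gave a single library. The libraries of a group are neighbouring times of a moving culture and not repeated cultures, so each p-value below compares these time points and does not measure how far separate cultures differ.

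In the YMC, yeast starved briefly and then fed slowly in a chemostat alternate between rapid oxygen use in OX, a reductive building phase (RB) in which cells divide, and RC, in which storage carbohydrates, peroxisomes and stress proteins accumulate. H3K18ac is laid down mainly by Gcn5, the acetyltransferase of the SAGA coactivator complex, which takes its acetyl groups from acetyl-CoA, and the mark sits on the first nucleosomes of transcribed genes. The question here was which genes gained and which lost the mark as oxygen consumption began, and in what order.

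H3K18ac of a gene was taken as the mean coverage over 300 bp on each side of its start codon, divided by the mean coverage of the nuclear genome of that library. This relative coverage is 1 where a window carries as many reads as the genome average. It was not divided by H3, so gains and losses of the mark below mean changes in relative coverage. Changes in the amount of H3, or in the level of the mark over the whole genome, were not separated from them. The test took in the 5733 of 6002 nuclear protein-coding genes whose windows averaged 5 or more reads per base over the 16 libraries. The 5 libraries held between 6911147 and 8135765 reads of 51 bp, with a mean nuclear coverage of 29.1 to 34.3 reads per base. Windows at the start codon stood between 1.69 and 1.74 times the nuclear mean in the first 4 libraries and at 1.55 at 48.98 h, the flattest of the 5. No base carried more than 102 reads in any library, and between 1.09% and 2.11% of the bases lay within 10 reads of that ceiling.

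In OX, 533 genes were higher than in RC (9.3% of the genes tested) and 933 were lower (16.3%), by limma at an adjusted p under 0.05. The median increase among the former was 0.52 on the log2 scale and the median change among the latter was -0.46, against -0.05 over all genes. Without regard to the test, all 3 OX libraries lay above both RC libraries in 1377 genes (24.0%) and below both in 1976 genes (34.5%). The share of higher genes among those called depended on how libraries were scaled. It was 36.4% after division by the nuclear mean, 44.5% after quantile normalization and 51.1% after median-of-ratios scaling, which moved the median difference of all genes by less than 0.1, from -0.05 to 0.01. The same share was 27.8% when only the 300 bp upstream of the start codon were used and 47.0% with only the 300 bp downstream. The calls also rest on a spread estimated with the 11 libraries outside the interval. With the 5 libraries alone limma called 0 genes (754 higher and 744 lower at an unadjusted p under 0.05, smallest adjusted p = 0.171), and without the library of 48.83 h it called 16 higher and 13 lower. Without the library of 48.32 h, or without that of 48.63 h, it called 0 in either direction (438 higher and 904 lower, and 655 and 983, at an unadjusted p under 0.05). Without the library of 48.98 h it called 510 higher and 409 lower. Of the 89 called genes named below by a fixed rule, 8 were still called without the library of 48.83 h. Most named genes thus lose their call there, also where this is not repeated for the single gene.

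The 12 largest increases, from 1.01 to 1.45 on the log2 scale, included those of INA1, SYO1 and RRP5. A gene whose window overlaps that of a gene already chosen was passed over, as with NIP7 (1.03), next to PUS1. INA1 (YLR413W, chromosome XII, 951156 to 953183 of the R64 assembly, plus strand) had a relative coverage of 0.478 and 0.509 in RC and of 1.03, 2.12 and 1.60 in OX, from window coverages between 14.8 and 62.7 reads per base. Each OX library stood above both RC libraries, and the limma difference was 1.45 ± 0.27 (log2, SE, adjusted p = 0.0165). SYO1, which escorts newly made ribosomal proteins Rpl5 and Rpl11 into the nucleus, read 0.701 and 0.881 in RC against 1.40, 2.57 and 1.91 in OX (1.17 ± 0.22, adjusted p = 0.0165). RRP5 (chromosome XIII, 725934 to 731123, minus strand), an RNA-binding factor needed to cut the pre-ribosomal RNA for both subunits, went from 0.855 and 1.05 to 1.62, 2.79 and 2.13 (1.09 ± 0.22, adjusted p = 0.0168). In all of these the highest value was that of 48.83 h and the 2 groups did not overlap.

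Further genes with a part in RNA and nucleotide work were among these 12. AAH1, the adenine deaminase, read 0.743 and 0.963 in RC and 1.61, 2.45 and 1.57 in OX. PUS1, a tRNA pseudouridine synthase, read 0.786 and 0.918 against 1.53, 2.57 and 1.66, in a window that overlaps that of the ribosome assembly gene NIP7, so the signal of the pair cannot be told apart. NOP2, an rRNA methyltransferase, shares its window with GCD10 in the same way, and MRD1, required for maturation of 18S rRNA, shares its window with PIS1. The plasma membrane transporter gene AQR1 peaked sharply, from 0.587 and 0.774 to 1.47, 2.24 and 1.11. GIC2, an effector of the polarity GTPase Cdc42, differed from the other 11 in timing. It read 0.623 and 0.687 in RC and 0.815, 1.69 and 2.10 in OX, so that its highest value came at 48.98 h (1.02 ± 0.26, adjusted p = 0.0188). The remaining members, YLR264C-A, BSC1 and the bud-site GTPase gene RSR1, had differences of 1.23, 1.09 and 1.01.

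The 12 largest decreases were larger in size, from -1.32 to -1.55, and several of their products work in peroxisomes. FOX2 (chromosome XI, 454352 to 457054, minus strand), the multifunctional enzyme of fatty acid beta-oxidation, read 2.45 and 2.42 in RC and 1.91, 0.409 and 0.529 in OX. Most of its fall came between 48.75 and 48.83 h, and the difference was -1.55 ± 0.50 (limma, adjusted p = 0.0340). CTA1, the peroxisomal catalase, read 1.91 and 1.73 against 1.19, 0.377 and 0.465, and CAT2, the carnitine acetyltransferase that moves acetyl units out of peroxisomes, 2.56 and 2.52 against 2.04, 0.468 and 0.630. PXA2, a subunit of the peroxisomal importer of long-chain acyl-CoA, fell by 1.38 and POT1, the 3-ketoacyl-CoA thiolase, by 1.36, the latter in a window shared with BNR1.

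The other large decreases belonged to stress genes and others. CTT1, the cytosolic catalase T of the general stress response, read 2.70 and 2.51 against 1.87, 0.493 and 0.707 (-1.46 ± 0.37, limma adjusted p = 0.0180). SOL4, a 6-phosphogluconolactonase, read 2.08 and 1.74 against 1.18, 0.332 and 0.536. In both genes the groups were separate, with the step from 48.75 to 48.83 h the largest. FMP45, a membrane protein of the eisosome family, ARO9, an aromatic aminotransferase of amino acid breakdown, GID11, a substrate receptor of the GID ubiquitin ligase, and DCS2, a stress-induced relative of the scavenger decapping enzyme, had differences of -1.54, -1.33, -1.34 and -1.32.

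**Figure D1:**
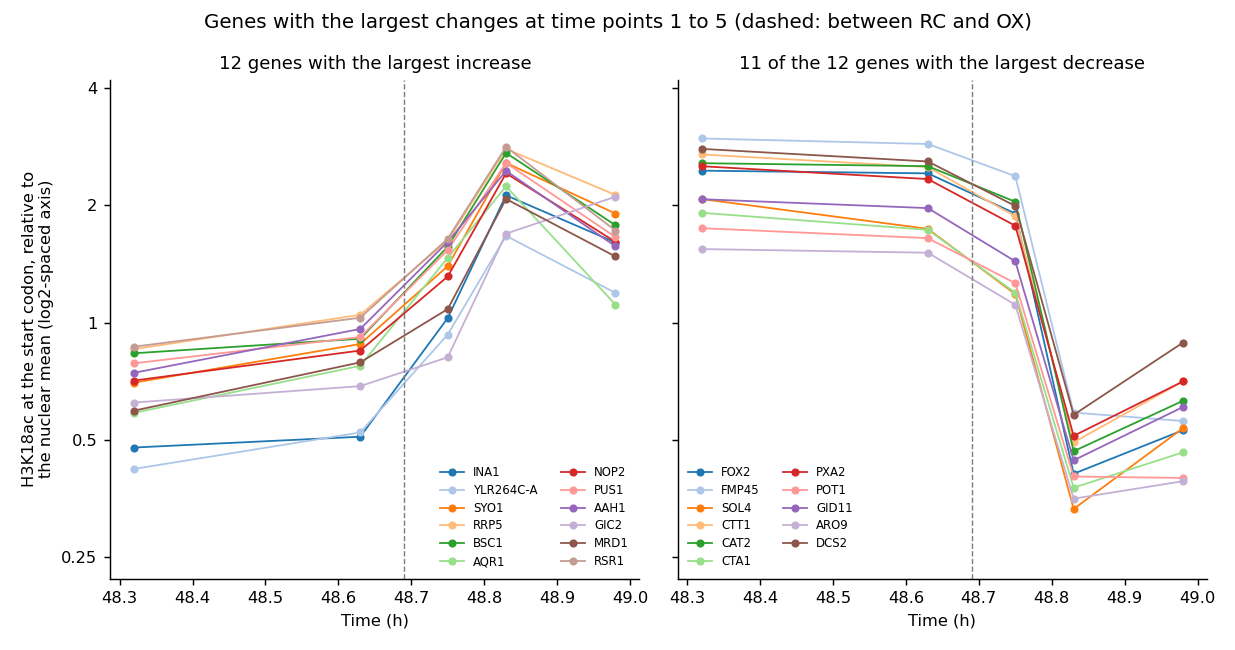
H3K18ac of the 12 genes with the largest increase (left) and 11 of the 12 with the largest decrease (right) among genes called with no overlap of the groups; x axis, time in hours; y axis, coverage of the 600 bp window over the nuclear mean, on a log2-spaced axis; each point is 1 library and the dashed line separates RC from OX. FOX2 drops from 1.91 to 0.409 between 48.75 and 48.83 h, whereas INA1 is already at 1.03 at 48.75 h, up from 0.509.

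The 30 functional lists of genes were then counted against these backgrounds of 9.3% higher and 16.3% lower. Ribosome assembly made up the clearest group among the higher genes. Of the 58 genes of the small subunit processome, the particle that processes 18S rRNA, 49 rose and 0 fell, with a median difference of 0.60. All 3 OX libraries lay above both RC libraries in 58 of 58, against 24.0% of all genes. The median relative coverage of these genes was 1.20 and 1.37 in RC and 1.73, 2.52 and 1.92 in OX. Of the 67 assembly factors of the large subunit, 54 rose and 0 fell, with a median of 0.66 and medians by library of 1.16, 1.30, 1.79, 2.49 and 1.87. NOP1, the fibrillarin methyltransferase, read 1.01, 1.35, 2.24, 2.85 and 2.13 over the 5 time points (0.97 ± 0.28, limma adjusted p = 0.0230), in a window shared with TSC13. HAS1, a DEAD-box helicase of both subunits, read 0.900, 1.23, 2.02, 2.71 and 1.79. NSA2, of the pre-60S particle, read 0.878, 1.12, 1.77, 2.68 and 1.84 in a window shared with LCP5. Each of these 3 climbed at every step to 48.83 h. RCL1, of the small subunit processome, rose by 0.92. LOC1 was the only member of either list with a negative difference, -0.08. Without the library of 48.83 h the number of small subunit members called dropped to 1, with a median difference of 0.46, and without that of 48.98 h it was 35. With either RC library left out it was 0, with the median unchanged in sign.

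Genes of the translation apparatus moved the same way with smaller differences. Of 28 genes of RNA polymerases I and III and their initiation factors 14 rose, with a median of 0.42. RPA190, the largest subunit of RNA polymerase I, read 1.17 and 1.50 in RC against 2.20, 3.14 and 2.21 in OX (0.86 ± 0.25, limma adjusted p = 0.0240), and RPA49 of the same enzyme rose by 0.91 in a window shared with CRS1. Of 40 translation factors 12 rose, among them PRT1 of initiation factor eIF3 (0.79) and SUP45, the release factor eRF1 (0.74). TIF1, for eIF4A, differed by 0.73, but it has a near-identical copy, TIF2, and multimapped reads were discarded, so its value is uncertain. Of 20 cytosolic aminoacyl-tRNA synthetases 9 rose, and in 20 of 20 each OX library exceeded both RC libraries, against 24.0% of all genes. SES1, which charges serine tRNA, read 1.03, 1.23, 1.68, 2.42 and 1.94, and the leucine and phenylalanine enzymes CDC60 and FRS1 rose by 0.74 and 0.73, FRS1 in a window shared with REX2. In none of these 3 lists was a gene called lower.

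Cytosolic ribosomal protein genes behaved differently in the test than in the values. Of 137 genes 3 (RPL4A, RPS22B and RPL1A) were called higher and 9 passed an unadjusted p of 0.05. Yet 136 of 137 had a positive difference, and 136 of 137 were highest at 48.83 h. Every OX library lay above both RC libraries in 131 of 137, against 24.0% of all genes. Their median relative coverage was 1.74 and 1.99 in RC and 2.35, 2.73 and 2.24 in OX, a median difference of 0.38. RPL4A read 0.526, 0.615, 0.769, 1.20 and 0.867 (0.62 ± 0.18, limma adjusted p = 0.0244). All 3 called genes have a paralog, and where copies are alike the removal of multimapped reads lowers coverage. The standard error of the list had a median of 0.28 against 0.10 over all genes. Outside the interval the list went from 2.05 at 49.15 h to 0.862 at 49.98 h within the RB libraries, which enter the shared spread, and without the library of 49.98 h 25 were called. The windows were also close to the ceiling, with a median of 80.8 reads per base at 48.83 h, and a correction for the ceiling raised the median difference to 1.06 and the calls to 34. The share of either in the result was not tested.

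Biosynthetic lists were mixed. Of 31 genes of purine and pyrimidine synthesis 12 rose and 1 fell. URA7, a CTP synthase, read 0.880 and 1.09 in RC and 1.78, 2.46 and 1.79 in OX in a window shared with MRPL16 (0.95 ± 0.23, limma adjusted p = 0.0180), and PRS3, a PRPP synthetase, rose by 0.65. URA2, which opens pyrimidine synthesis, had a shorter peak, from 0.866 and 0.989 to 1.57, 2.54 and 1.14, and its difference of 0.78 was 0.49 and not called without the library of 48.83 h. The only gene of this list called lower was YNK1, the nucleoside diphosphate kinase, with -0.33. Of 69 genes of amino acid biosynthesis 7 rose and 3 fell, with a median of 0.11. The share that rose is near the 9.3% of all genes, and the median was 0.05 without the library of 48.83 h and 0.18 without that of 48.98 h. CPA1, for arginine precursors, rose by 0.72 in a window shared with YOR302W, its own leader open reading frame, and ARO7, the chorismate mutase, by 0.73. The 3 that fell were ARO9, the catabolic aminotransferase described above, BAT2, the cytosolic branched-chain aminotransferase, and GDH3, a glutamate dehydrogenase isoform, at -1.33, -0.57 and -0.43. Of 33 sulfur and methionine genes 3 rose, a share near the 9.3% of all genes. Among them were SAM4 (0.41) and SAH1 (0.30), which handle S-adenosylmethionine and its product. MET28, a regulator of the pathway, fell by 0.41 in a window shared with YAP5 (-0.23 and not called without the library of 48.98 h). Of 9 one-carbon genes only MIS1, the mitochondrial C1-tetrahydrofolate synthase, rose, from 1.02 and 1.19 to 1.97, 2.88 and 1.90.

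**Figure D2:**
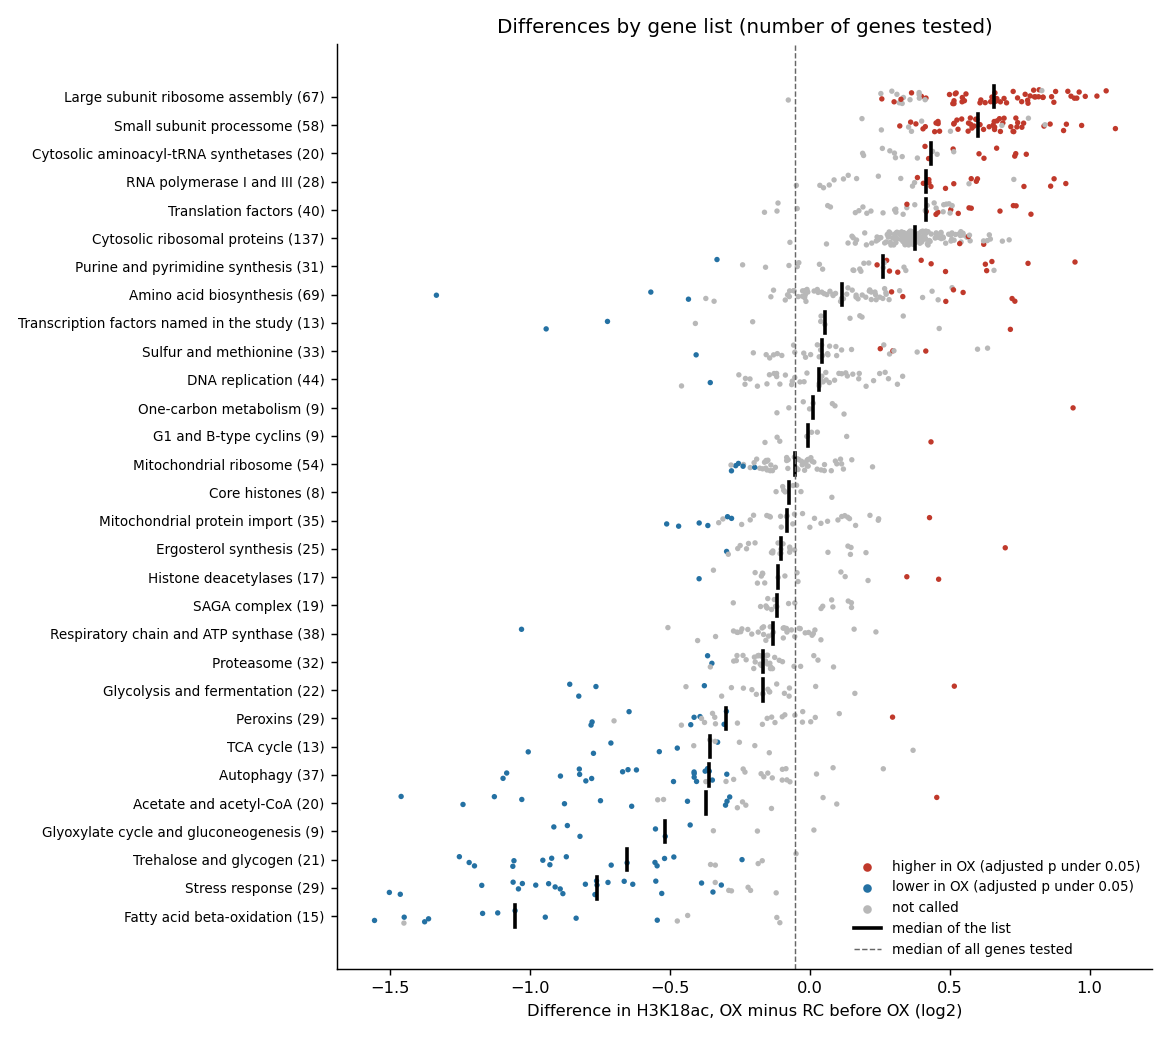
Difference in H3K18ac between OX and RC (x axis, log2) for every tested member of 30 gene lists (y axis, number of genes tested in parentheses); each point is 1 gene, red where called higher and blue where called lower, black bars are list medians and the dashed line is the median of all genes, -0.05. The lists run from large subunit ribosome assembly, with a median of 0.66, to fatty acid beta-oxidation, with a median of -1.05, and ribosomal protein genes form a tight grey cluster around 0.38.

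At the opposite end stood the genes that burn fat and those that make or break down storage sugars. Of 15 genes of fatty acid beta-oxidation 10 fell and 0 rose, with a median difference of -1.05. In 14 of 15 each OX library lay below both RC libraries, against 34.5% of all genes. Their median relative coverage was 2.31 and 2.29 in RC and 1.91, 0.695 and 0.869 in OX. POX1, the acyl-CoA oxidase that starts the pathway, read 2.50, 2.43, 2.17, 0.497 and 0.509, a difference of -1.45 ± 0.52 that just missed the threshold in limma (adjusted p = 0.05004). FAA2, an acyl-CoA synthetase of peroxisomes, fell by 1.11 and PXA1, the partner of Pxa2 in acyl-CoA import, by 1.05. ANT1, the peroxisomal adenine nucleotide carrier, had a difference of -0.11 and was not called. Without the library of 48.83 h the median was -0.84 with 0 members called, and without that of 48.98 h it was -0.95 with 1. Of 29 peroxins, which build the organelle and import its enzymes, 8 fell and 1 rose, with a median of -0.30. PEX9 and PEX18, a receptor and a co-receptor of peroxisomal import, both fell by 0.78, and PEX3, which starts peroxisome membranes, by 0.64 in a window shared with UBX5.

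Trehalose and glycogen, the storage sugars of RC, had 21 genes in their list. Of these 16 fell and 0 rose, with a median difference of -0.65, and 19 had all OX libraries below both RC libraries, against 34.5% of all genes. PGM2 (chromosome XIII, 475897 to 477606, minus strand), the main phosphoglucomutase, read 1.56 and 1.22 in RC and 0.735, 0.309 and 0.606 in OX (-1.25 ± 0.22, limma adjusted p = 0.0165), in a window shared with YMR105W-A. GLC3 (chromosome V, 133120 to 135234, plus strand), the glycogen branching enzyme, read 2.68 and 2.44 against 1.82, 0.452 and 1.31 (-1.22 ± 0.32, adjusted p = 0.0193), a difference of -0.69 without the library of 48.83 h. TPS1, which makes trehalose-6-phosphate, read 2.13, 1.98, 1.55, 0.586 and 1.11, and UGP1, which supplies UDP-glucose to both stores, 1.79, 1.69, 1.31, 0.726 and 1.28. All 4 were lowest at 48.83 h and higher again at 48.98 h. NTH1, the neutral trehalase that breaks trehalose down, had a difference of -0.05 and was not called. The list median was -0.40 with 6 calls without the library of 48.83 h, and without that of 48.98 h it was -0.72 with 14.

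Stress and recycling genes fell with them. Of 29 stress-response genes 23 fell and 0 rose, with a median of -0.76 and medians by library of 2.31, 2.06, 1.90, 1.23 and 1.11. The small heat shock proteins HSP12 and HSP26 had differences of -1.06 and -0.89, and the disaggregase HSP104 of -0.76. SSA3, a stress-induced Hsp70, fell by 1.17. Without the library of 48.83 h 1 member was called, and without that of 48.98 h 13 were. Of 37 autophagy genes 20 fell and 0 rose (median -0.36). ATG8, the ubiquitin-like protein of the autophagosome membrane, read 1.62 and 1.60 in RC against 1.29, 0.581 and 0.733 in OX (-0.89 ± 0.22, limma adjusted p = 0.0180). ATG7, its activating enzyme, fell by 1.08 and ATG34, a cargo receptor, by 1.09. The 32 proteasome genes moved less, with 2 called lower (RPT6 and RPN11, at -0.36 and -0.35, both in shared windows). All 32 were at their lowest at 48.98 h, the library with the flattest profile. This was not particular to them. The same held for 7 of 8 core histone genes, 22 of 33 sulfur and methionine genes and 16 of 22 glycolysis and fermentation genes. In the TCA cycle it held for 0 of 13. The share over all genes was not counted.

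In the supply of acetyl-CoA, isoforms parted. Of 20 genes for acetate and acetyl-CoA metabolism 11 fell and 1 rose (median -0.37). ACS1, the acetyl-CoA synthetase of respiring cells, read 1.65 and 1.50 in RC and 1.28, 0.370 and 0.450 in OX (-1.24 ± 0.40, limma adjusted p = 0.0333), whereas ACS2, which supplies acetyl-CoA in the nucleus and cytosol, stayed between 1.52 and 1.68 and was not called (0.10 ± 0.08, adjusted p = 0.346). MPC2 and MPC3, alternative subunits of the mitochondrial pyruvate carrier, were called in opposite directions. MPC2 read 1.76 and 1.92 against 2.48, 3.00 and 2.25 (0.45 ± 0.11), and MPC3 2.26 and 2.26 against 2.11, 1.03 and 1.30 (-0.64 ± 0.20). Their common partner MPC1 had a difference of -0.52 that missed the threshold. ALD4, the mitochondrial aldehyde dehydrogenase, fell by 0.88 and CRC1, the mitochondrial carnitine carrier, by 1.13. Differences between isoforms were not tested.

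In glycolysis and fermentation 1 of 22 genes was higher and 4 were lower, shares near the 9.3% and 16.3% of all genes, so that these counts do not set the list apart. Its median of -0.17 was -0.06 without the library of 48.98 h. Single isoforms are given as values. PYK2, HXK1 and GLK1, the pyruvate kinase and sugar kinases used when glucose is scarce, had differences of -0.86, -0.82 and -0.76, GLK1 in a window shared with YCL042W. For HXK1 and GLK1 the differences were -0.46 and -0.37 without the library of 48.83 h, and that of GLK1 was then not called. HXK2, the hexokinase of glucose-grown cells, had -0.14 and was not called. ADH1, the alcohol dehydrogenase of fermentation, rose from 1.28 and 1.59 to 1.96, 2.36 and 1.96 (0.52 ± 0.16, limma adjusted p = 0.0269). ADH2, which oxidizes ethanol, read 2.20, 2.23, 2.12, 1.49 and 1.30, a difference of -0.44 that missed the threshold (adjusted p = 0.0679).

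Mitochondrial genes did not move as a block. In the TCA cycle 6 of 13 genes fell, with a median of -0.36 and medians by library of 2.18, 2.22, 2.08, 1.38 and 1.82. CIT1, the mitochondrial citrate synthase, read 2.46 and 2.46 against 2.16, 1.02 and 1.42 (-0.71 ± 0.19, limma adjusted p = 0.0193). CIT3, a second mitochondrial citrate synthase, and LSC2 of succinyl-CoA ligase had differences of -1.005 and -0.77. Without the 48.83 h library the median of this list was -0.18, and CIT1 (-0.47) and LSC2 (-0.49) were not called. In the glyoxylate cycle and gluconeogenesis 6 of 9 fell (median -0.52), led by MDH2, IDP2 and MLS1 at -0.91, -0.87 and -0.82, while ICL1, the isocitrate lyase, and PCK1 were not called at -0.19 and 0.02. Of 38 nuclear genes for the respiratory chain and ATP synthase 1 was called lower, NDE2, an external NADH dehydrogenase, by 1.03, in a window shared with YDL085C-A. Yet 32 of 38 had a negative difference, with a median of -0.13 against -0.05 over all genes. In 21 each OX library lay below both RC libraries and in 2 above, against 34.5% and 24.0% of all genes. Of 54 mitochondrial ribosomal protein genes 5 fell and 0 rose, the largest changes being those of MRPL51 (-0.28, in a window shared with TMH18), RSM7 (-0.26) and MRPL38 (-0.25), and their median of -0.05 was that of all genes. Among 35 import genes 6 fell, a share near the 16.3% of all genes. TOM22 of the outer membrane translocase fell by 0.51 and MIA40, of the intermembrane space, by 0.47 in a window shared with YKT6. Only PAM18 rose, by 0.43, in a window shared with the ribosome assembly gene RLP24.

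Few genes for chromatin, replication and division were called. None of the 19 SAGA genes and none of the 8 core histone genes was called by limma (2 and 0 at an unadjusted p under 0.05), with medians of -0.12 and -0.07. Each OX library lay below both RC libraries in 10 of the 19 SAGA genes and 2 of the 8 histone genes, against 34.5% of all genes. It lay above both in 2 and 0, against 24.0% of all genes. The largest differences in these lists were those of SUS1 (-0.27, limma adjusted p = 0.0546, window shared with YSA1) and of HHF1, for histone H4 (-0.12). GCN5 read 1.66 and 1.77 in RC against 1.53, 1.60 and 1.52 in OX, with separate groups but a difference of -0.14 that was not called (limma adjusted p = 0.206). SPT7, the tagged gene, had -0.15. Histone genes have near-identical copies, so their values are uncertain. Among 17 histone deacetylase genes 2 rose, a share near the 9.3% of all genes, HST1 by 0.46 and HDA1 by 0.35. The window of HDA1 is shared with RCM1, so the signal of the pair cannot be told apart. In 8 of 17 deacetylase genes each OX library lay below both RC libraries and in 3 above. HST2 fell by 0.39 (-0.25 and not called without the library of 48.83 h). Among 44 replication genes only POL31, a polymerase delta subunit, was called, at -0.35 in a window shared with LSO1 (-0.23 and not called without the library of 48.83 h). Between 48.83 and 48.98 h, 6 replication genes were higher by more than 0.5 (log2) and 2 lower, against 2.81% and 4.08% of all genes. At 48.98 h 19 of 44 had their highest value of the 5 libraries, as had 5 of 9 cyclin genes. The share of all genes highest there was not counted, so these counts do not set the lists apart. That library had the flattest profile, and both lists had low windows. At 48.32 h their medians stood at -0.33 and -0.37 (log2) relative to the median of all genes. These are values with no test. CLN3, the cyclin that acts at Start, rose from 1.71 and 1.75 to 2.21, 2.75 and 2.19 (0.43 ± 0.12, adjusted p = 0.0210) and was the only 1 of 9 cyclin genes called. In ergosterol synthesis ERG4 rose by 0.70, in a window shared with PDR1, and ERG9 fell by 0.30.

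Of the 13 transcription factor genes that the study singled out from models of gene expression, 3 were called (1 higher and 2 lower), with a median over the list of 0.05. Both shares are near the 9.3% and 16.3% of all genes, so these counts do not set the list apart. SFP1 (chromosome XII, 925568 to 927619, plus strand), the activator of ribosomal protein and ribosome assembly genes, read 0.755 and 0.832 in RC and 1.14, 1.63 and 1.38 in OX (0.72 ± 0.15, limma adjusted p = 0.0168). XBP1, a repressor active in quiescent cells, read 2.36 and 2.36 against 2.09, 0.799 and 1.58 (-0.72 ± 0.23, adjusted p = 0.0318). Without the 48.83 h library the difference of XBP1 was -0.36 and not called. CIN5, a stress-linked bZIP factor, fell by 0.94 in a window shared with YOR029W. PIP2, the activator of beta-oxidation genes, read 3.01 and 3.05 against 2.89, 2.12 and 1.88, with separate groups but a difference of -0.41 ± 0.16 that was not called (adjusted p = 0.0733). HFI1, a SAGA subunit, stayed between 1.66 and 1.80. DAT1, ASG1 and PPR1 also had separate groups without being called (0.46, 0.33 and 0.19), in windows shared with TAF8, FKH1 and BRE2. YHP1, MIG2, STE12, CUP9 and YLR278C overlapped between the groups. Each OX library lay above both RC libraries in 4 of the 13 genes and below both in 3, against 24.0% and 34.5% of all genes. Separate groups thus do not set the list apart either.

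The steps between neighbouring libraries show when these changes occurred, as values with no test, since each time point is 1 library. Between 48.32 and 48.63 h, 18.6 min apart and both in RC, 0 of 5733 genes differed by more than 0.5 on the log2 scale in either direction (0.0% and 0.0%), and levels had a Pearson correlation of 0.988 across genes. Over the next 7.2 min, into OX, 76 genes were higher by more than 0.5 (1.33%) and 14 were lower (0.244%). Over the following 4.8 min, from 48.75 to 48.83 h, 182 were higher (3.17%) and 533 lower (9.3%), and the correlation was 0.834, the weakest of the 4 steps. From 48.83 to 48.98 h, 161 were higher (2.81%) and 234 lower (4.08%). In these values the early step therefore held more gains than losses and the later one more losses than gains. Steps were not corrected for the ceiling of 102 reads, which compresses changes in high windows. Genes called lower had a median window coverage of 64.7 reads per base at 48.32 h, and genes called higher 38.3. The share of the ceiling in this order was not tested.

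The same order appears in the genes called by the comparison of groups. At 48.75 h the genes called higher had covered a median of 46.5% of their change from the RC mean to 48.83 h, with 204 of 533 past 50% (38.3%), while the genes called lower had covered 25.2%, with 71 of 933 past it (7.61%). As these genes were chosen by the same libraries, the shares describe them and test nothing. They too were not corrected for the ceiling. Of the genes called higher 504 were highest at 48.83 h, 27 at 48.98 h and 2 at 48.75 h. Of those called lower 586 were lowest at 48.83 h and 344 at 48.98 h.

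Gains at the first OX library were largest in INA1 (0.89), AQR1 (0.84), YOR338W (0.82) and LDS2 (0.78), followed by YBR238C (0.78) and the glucose transporter gene HXT4 (0.76). HXT4 read 0.625, 0.592, 1.07, 1.22 and 1.20, so that most of its gain was in place at 48.75 h. DBP2 (0.73) and REA1 (0.73), an RNA helicase and the giant AAA ATPase that strips factors from the pre-60S particle, belonged to the first 10 as well, REA1 in a window shared with REX3. In all, 13 of 67 large subunit assembly genes and 6 of 58 small subunit genes were higher by more than 0.5 in this step, against 1.33% of all genes. Of the 76 genes 71 were called higher in OX, and 36 gained a further 0.5 in the next step. HXT2, another glucose transporter gene, and AHT1, whose window overlaps that of HXT4, were the 2 called genes with their highest value already at 48.75 h, HXT2 reading 0.795, 0.808, 1.28, 1.04 and 1.22.

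Only 14 genes were lower by more than 0.5 at the first OX library, and 4 of them belong to the 21 trehalose and glycogen genes. GDB1, the glycogen debranching enzyme, had the largest step, -0.76, and read 1.41, 1.24, 0.691, 0.326 and 0.607. PGM2 (-0.66), TSL1, the large subunit of trehalose synthase (-0.58, window shared with CUE4 and YML100W-A), and GPH1, glycogen phosphorylase (-0.54), were the others. In the same step HSP26 and NTH1 were slightly higher (0.06 and 0.10) and FOX2 was lower by less than 0.5 (-0.33). The remaining 10 included CSM4 (-0.72) and YIG1 (-0.61), which share a window, ADY2, an acetate transporter (-0.55), DCS1, the scavenger decapping enzyme (-0.53), SOL4 (-0.52) and CTA1 (-0.50), along with YNL194C, OSH2 and RGI1. All 14 were called lower in OX and all were lower again at 48.83 h.

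The losses of the 4.8 min between 48.75 and 48.83 h were the largest changes of any step. FOX2 changed by -1.98, POX1 by -1.93, PRR2 by -1.92, CAT2 by -1.92 and FMP45 by -1.85. The medians of the lists for this step were -1.19 for beta-oxidation, -0.86 for stress response, -0.77 for trehalose and glycogen and -0.63 for the TCA cycle. Losses over 0.5 were found in 11 of 15, 19 of 29, 16 of 21 and 9 of 13 of their genes, against 9.3% of all genes. The same lists had medians of -0.28, -0.14, -0.23 and -0.11 in the step before. Gains were smaller, with TPO2 (1.05), INA1 (0.98), GIC2 (0.97) and the cell wall protein gene SUN4 (0.96) at the top, and median gains of 0.50 and 0.47 for small and large subunit assembly.

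**Figure D3:**
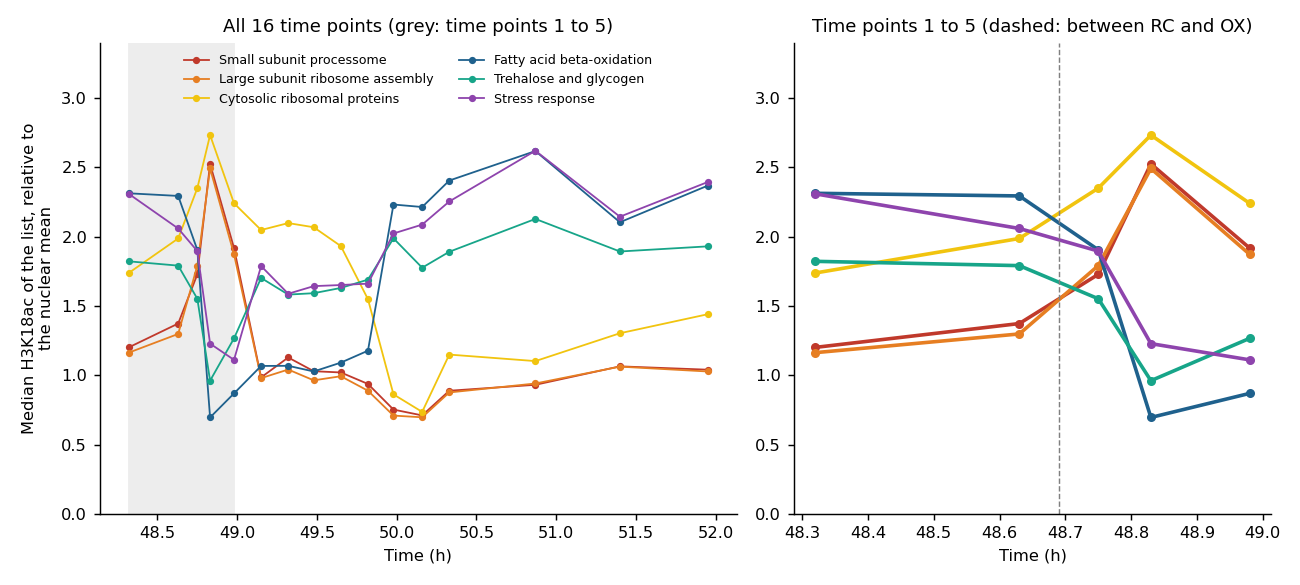
Median relative H3K18ac coverage of 6 gene lists (y axis) against time in hours (x axis), at all 16 time points with the interval from 48.32 to 48.98 h in grey (left) and in that interval alone (right); each point is the median over the tested genes of a list in 1 library. The assembly lists peak at 2.52 and 2.49 at 48.83 h, where beta-oxidation is at its lowest, 0.695, and at 48.98 h trehalose and glycogen genes are back at 1.27 while beta-oxidation stands at 0.869.

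By 48.98 h growth genes had come down from their peak and part of the catabolic genes had come back. The median step was -0.34 for the small subunit processome, -0.36 for large subunit assembly and -0.27 for ribosomal proteins, against -0.09 for all genes in this flatter library. This fall was not particular to growth genes. The median step was -0.38 for sulfur and methionine, -0.23 for glycolysis and fermentation and -0.21 for the proteasome. For the respiratory chain and the TCA cycle it was 0.09 and 0.37. RRN11, an RNA polymerase I initiation factor, went from 2.31 back to 1.00, near its RC values of 0.671 and 0.762 (its difference of 0.87 was 0.53 and not called without the library of 48.83 h), and YOR338W from 2.37 to 0.933. Trehalose and glycogen genes had a median step of 0.54, and 11 of 21 were higher by more than 0.5, against 2.81% of all genes. In beta-oxidation the median was 0.09 and the count 0 of 15, and in stress response 0.02 and 3 of 29. GLC3 (1.35) and GSY1, a glycogen synthase (1.07), were among the 10 largest gains, as were CAT8, the activator of gluconeogenic genes (1.31), the zinc cluster gene ZNF1 (1.49), IDH2 of isocitrate dehydrogenase (1.15) and HXK1 (1.03). IDH2 read 1.52, 1.49, 1.38, 0.630 and 1.52, thus a single low library at 48.83 h, and SDH1, of succinate dehydrogenase, read 2.54, 2.53, 2.22, 1.08 and 2.23. Of the 533 genes that lost more than 0.5 up to 48.83 h, 109 regained more than 0.5 by 48.98 h.

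A few genes had their highest value at 48.98 h. Besides GIC2, the 27 genes called higher with their maximum there included CLA4, a kinase and effector of Cdc42, which read 1.10, 1.17, 1.27, 1.93 and 2.28, SCW10, a cell wall glucanase-like protein, which read 0.970, 0.979, 1.25, 1.89 and 2.19, and PCL2, a cyclin of the kinase Pho85, which read 1.16, 1.29, 1.39, 1.54 and 1.90. UTR2, a chitin transglycosylase, SKT5, an activator of chitin synthase (window shared with YEL1), and DNF2, a phospholipid flippase, were also among them. UTR2 (0.00) and DNF2 (0.03) hardly differed between 48.83 and 48.98 h. All of these genes were named after their values had been seen.

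After the interval the assembly lists stood below their RC values, with medians of 0.984 and 0.979 at 49.15 h. Trehalose and glycogen genes were then at 1.70, near their RC values of 1.82 and 1.79, and stayed between 1.58 and 1.70 up to 49.82 h. Beta-oxidation genes remained low over the same libraries, between 1.03 and 1.18, and reached 2.23 only at 49.98 h. The losses of the 2 groups at 48.83 h were thus followed by different courses in these libraries, a difference that was not tested.

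Around the start codon the change was centred on the 5′ end of the genes. In the 125 ribosome assembly genes the coverage at 48.83 h was 2.13 times that of 48.32 h in the 300 bp downstream of the start codon and 1.88 times in the 300 bp upstream. Further into the genes it was 1.93 times at 300 to 600 bp and 1.15 times at 700 to 1000 bp. At 48.75 h the downstream 300 bp were at 1.50 times and the next 300 bp at 1.25 times. By 48.98 h the upstream side had come down to 1.38 times and the downstream side to 1.71 times, and the ratio of downstream to upstream coverage went from 1.08 at 48.32 h over 1.23 at 48.83 h to 1.34 (the ratio of all genes went from 1.04 over 1.09 to 1.15). In the 65 genes of storage, stress and beta-oxidation the coverage at 48.83 h was 0.459 times that of 48.32 h downstream and 0.492 times upstream, and 0.911 times at 700 to 1000 bp. In the 137 ribosomal protein genes, whose peak is nearest the ceiling, the gain was 1.48 times in the first 300 bp and 2.07 times in the next 300 bp.

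**Figure D4:**
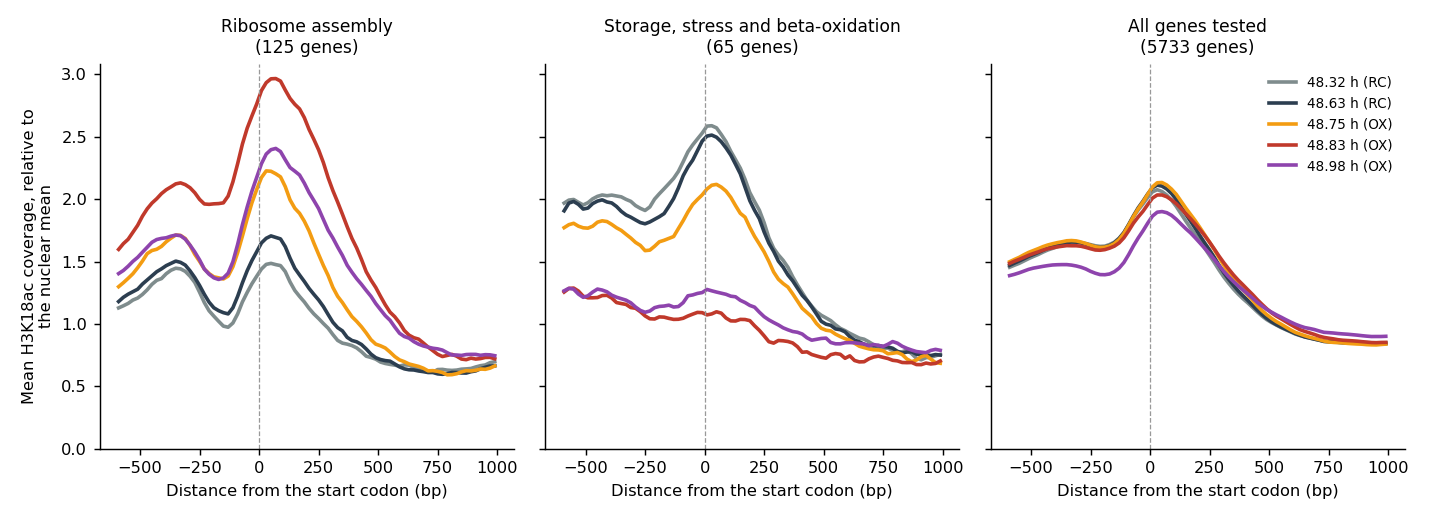
Mean H3K18ac coverage over the nuclear mean (y axis) against distance from the start codon in bp (x axis, negative upstream) for ribosome assembly genes, for storage, stress and beta-oxidation genes and for all genes tested; each line is 1 library, coloured by time. The red line of 48.83 h is the highest of 5 around the start codon in the first panel, 2.13 times the line of 48.32 h downstream of the start, and falls to 0.459 times in the second, while all genes stay within 0.961 to 1.05 times there.

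Neighbouring genes limited how the windows could be read. Among 867 divergently transcribed pairs with overlapping windows, 124 pairs had both genes called, 39 higher and 85 lower, and 0 pairs were called in opposite directions. Since such windows share bases, this agreement is in part built in. Outside the 30 lists were 360 of the 533 genes called higher (67.5%) and 805 of the 933 called lower (86.3%), so the lists describe a minority of the calls.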

How the data were processed

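H3K18ac ChIP-seq coverage of 16 time points of the YMC, 1 library each, was analysed. The authors trimmed reads with Trimmomatic 0.32, mapped them with Bowtie according to the methods (the submitters' processing notes name STAR), kept uniquely mapped reads only, took out duplicates (SAMtools) and counted reads over each base (bedtools). The coverage signal was used as deposited, in whole reads per base, with no division by H3. The highest coverage, 102, would follow for 51 bp reads from duplicate removal on both strands, from which the read length and read numbers were inferred.

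The authors' labels give sampling times and no phases. Libraries were assigned to phases by these times, with the phase names read from the study's figure of sampled time points. Gene starts came from RefSeq genes on R64 (6477 genes, coding regions only, with 96.4% of lengths a multiple of 3), with the strand read from the systematic name. Window means over 600 bp were divided by the nuclear mean, log2-transformed after adding 0.1, and compared with limma 3.58.1 in R 4.3.3 (trended prior, 16 libraries in 4 groups, OX minus RC before OX, Benjamini-Hochberg over 5733 genes, threshold 0.05, two-sided, genes with a mean window coverage of at least 5). A fold change on this scale understates the change of low genes. On simulated data with independent noise the procedure recovered 69 of 100 genes shifted by 0.5 and 95 of 100 shifted by 1. Neighbouring times of 1 culture are not independent, so this does not show how reliable the calls above are. Other steps used Python 3.11.15, numpy 2.4.6, pandas 2.3.3 and matplotlib 3.10.9.

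Alternatives were a smaller (0.01) and a larger (1) pseudocount, a coverage minimum of 20 or none, scaling by median of ratios or by quantiles, each side of the start alone, a ceiling correction, depth as a covariate, only the 5 libraries, and leaving out each of the 16 libraries. Named genes are the 12 largest increases and decreases among called genes without overlap, skipping a gene whose window overlaps that of one already named, up to 3 called members of each list, and 13 transcription factor genes. Genes named for a single step, isoform pairs, and further members used as examples were chosen after their values had been seen. The members, lists and tests were chosen with earlier results of these data known. TOM1, a ubiquitin ligase caught by a prefix, was removed from the import list, which keeps TIM11, an ATP synthase subunit. ARG5,6 and ADE5,7 were not matched, and 1 aminoacyl-tRNA synthetase gene was not tested. RNA-seq, H3, other histone marks and promoter sequences were not used here. One gene that meets the naming rule is not reported here.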

Additional observations from a re-analysis of the deposited data

Results flagged for a closer look

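Coverage of the mitochondrial chromosome entered no comparison, since it carries no histones and was left out of the scaling. Its mean was above 0 in each library and stood at 0.252 of the nuclear mean at 48.32 h, 0.507 at 48.63 h, 0.424 at 48.75 h, 0.272 at 48.83 h and 0.401 at 48.98 h. The 2 RC libraries hold the lowest and the highest value of the 5, so the value did not separate RC from OX. The 2 libraries with the lowest values, 48.32 and 48.83 h, lie in different phases. With no input library used here, its source was not tested.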

How the results depend on the processing

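The number of genes called depended most on the libraries. With only the 5 libraries of the interval, 0 genes were called higher and 0 lower. Leaving out 1 library at a time gave 0 to 734 genes higher and 0 to 1584 lower, with 0 in both directions without 48.32 h or without 48.63 h, 16 and 13 without 48.83 h, and 510 and 409 without 48.98 h. Genes called higher numbered 915 with median-of-ratios scaling, 883 with quantile normalization and 891 with the ceiling correction. The difference in enrichment at gene starts, -0.04 (OX minus RC), was -0.02 against gene ends. The median difference changed sign for mitochondrial ribosome genes with median-of-ratios scaling (0.0106), for DNA replication with the upstream window (-0.0394) and without 48.98 h (-0.0231, leaving out single libraries giving up to 0.0568), and for the 13 transcription factors with the upstream window (-0.0334). The medians of the sulfur, one-carbon and cyclin lists, all within 0.05 of 0, also crossed 0 under some settings. The cause was not tested. Of the 89 called genes that the naming rule chose, 8 were still called without 48.83 h, 65 without 48.98 h and 78 of 86 with the downstream window, and none changed sign under any setting. No paired analysis was possible because the RC and OX groups share no replicate number. The alternative on promoter motifs was not run because no promoter sequences were used. The median differences of ribosome assembly, beta-oxidation, stress, and trehalose and glycogen genes kept their sign under every setting. Depth limits low windows, and the ceiling limits the highest.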
